A study of Homo sapiens with 14 samples.

Results

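The genes described here are 9 genes of the NRF2 antioxidant and thioredoxin system, *NFE2L2*, *KEAP1*, *NQO1*, *GCLC*, *GCLM*, *TXNRD1*, *SRXN1*, *PRDX1* and *TXN*, out of 61541 Ensembl genes in a table of RNA sequencing counts. They were chosen by name, and each symbol matched 1 identifier. The counts came from 14 libraries of polyadenylated RNA of Jurkat cells, an established human line of T-cell acute lymphoblastic leukaemia. One set of libraries came from cells in DMSO, the solvent (n = 3), or in APS-2-79, labelled KSRi (n = 3), a small molecule that binds KSR, a scaffold that brings RAF, MEK and ERK kinases together. The other set came from cells with *KSR2* guide 1 (n = 3), *KSR2* guide 2 (n = 3) or a guide without a target (NT, n = 2). The sample titles call the guide cells a CRISPR knockout, the design text speaks of CRISPR interference, and the NT library names refer to a hairpin control. The labels say that the RNA came from transduced cells and do not say whether the DMSO and KSRi cells also carried a vector, nor whether any line was 1 clone. No dose or time of treatment is stated, nor is the culture behind each replicate. The p-values below therefore reflect the spread between libraries, which may be technical.

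NRF2, encoded by *NFE2L2*, is a transcription factor that KEAP1 holds in the cytoplasm and hands to a CUL3 ubiquitin ligase for destruction. Oxidants and electrophiles that modify KEAP1 let NRF2 reach the nucleus, where it pairs with small MAF proteins on antioxidant response elements. Its target genes include the quinone reductase *NQO1*, the subunits of glutamate-cysteine ligase *GCLC* and *GCLM*, which start glutathione synthesis, and the thioredoxin system. In that system the reductase TXNRD1 keeps thioredoxin (TXN) reduced with NADPH, thioredoxin reduces the peroxidase PRDX1, and sulfiredoxin (SRXN1) rescues PRDX1 that has been over-oxidised. NRF2 is controlled mostly as a protein, which RNA counts do not measure.

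The core letters of the antioxidant response element, TGACNNNGC or on the other strand GCNNNGTCA, were looked for in RefSeq promoter windows (GRCh38.p14) from 250 bases before to 50 bases after each annotated start. Windows were found for 8 of the 9 genes (11 windows), and for *PRDX1* none was used. Matches lay in the windows of 3 of these 8 genes, *GCLM*, *KEAP1* and *TXNRD1*, while 16.1% of all 27305 genes with a window and 13.3% of all 35116 windows held one. The 5 matches that lie wholly before a start are shown because they hold the core letters of the element on which NRF2 acts. Whether NRF2 acts through any of these 5 was not tested. They are printed in the gene's own direction, with the match in capitals.
GCLM (chr1:93909446-93909474, minus strand): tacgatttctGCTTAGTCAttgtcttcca
KEAP1, nearer match (chr19:10502784-10502812, minus strand): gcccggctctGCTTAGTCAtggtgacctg
KEAP1, farther match (chr19:10502807-10502835, minus strand): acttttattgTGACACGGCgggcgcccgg
TXNRD1, first start (chr12:104215670-104215698, plus strand): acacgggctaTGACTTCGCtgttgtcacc
TXNRD1, second start (chr12:104286920-104286948, plus strand): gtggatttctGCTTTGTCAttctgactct
The *GCLM* match and the nearer *KEAP1* match are the same letters, GCTTAGTCA. The matches begin 34 bases before the start for *GCLM*, 31 and 54 for *KEAP1*, and 99 and 102 for the 2 starts of *TXNRD1*. In GENCODE 29 both *KEAP1* matches and the match at the second *TXNRD1* start lie within exons, 1 base of the *GCLM* match lies in an exon, and the match at the first *TXNRD1* start lies upstream of the gene. A match describes letters only, and elements known to lie farther from a start are outside these windows.

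Library totals ran from 21710466 to 45897075 counts, both among KSRi libraries. *KSR2*, the target of the guides, stood at 29.5 ± 0.786 CPM in NT (n = 2; CPM are counts scaled to library size), 0.541 ± 0.110 CPM with guide 1 and 0.766 ± 0.049 CPM with guide 2 (SD, n = 3 each). Of 10 T-lineage markers all were detected in every library, the lowest being *CD7* at 40.7 CPM. Of 11 markers of B, myeloid and erythroid cells, *CD79A* stood at 21.8 to 67.9 CPM, *CD14* reached 0.712 CPM, and the other 9 stayed at or under 0.227 CPM. The share of mitochondrially encoded counts was 2.51%, 2.06% and 1.12% in KSRi replicates 1, 2 and 3, against 1.27% to 1.45% in DMSO. KSRi libraries differed among themselves more than DMSO libraries (chi-square per degree of freedom 17.2 to 49.9 against 5.83 to 7.78), and KSRi replicate 1 was the library farthest from its group.

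Per length of exon, *PRDX1* was the most abundant of the genes and *NQO1* the least abundant of those that could be tested. In DMSO, levels per kilobase of exon were 388 ± 27.9 CPM per kb for *PRDX1* and 115 ± 7.96 CPM per kb for *TXN* (SD, n = 3). The reductase *TXNRD1* stood at 70.4 ± 1.84 CPM per kb and *KEAP1* at 40.4 ± 3.54 CPM per kb. The levels were 16.7 ± 0.187 CPM per kb for *GCLM*, 13.5 ± 1.497 CPM per kb for *NFE2L2*, 12.4 ± 0.164 CPM per kb for *GCLC* and 1.83 ± 0.205 CPM per kb for *NQO1*. The abundant end of this order is the thioredoxin arm, and *NFE2L2* and *GCLC* are neighbours whose libraries overlapped. In the NT and guide libraries *PRDX1* was still the first and *NQO1* the last, but the distance from *PRDX1* to *TXN* was smaller, at 81.1 against 56.9 CPM per kb in NT.

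**Figure D1:**
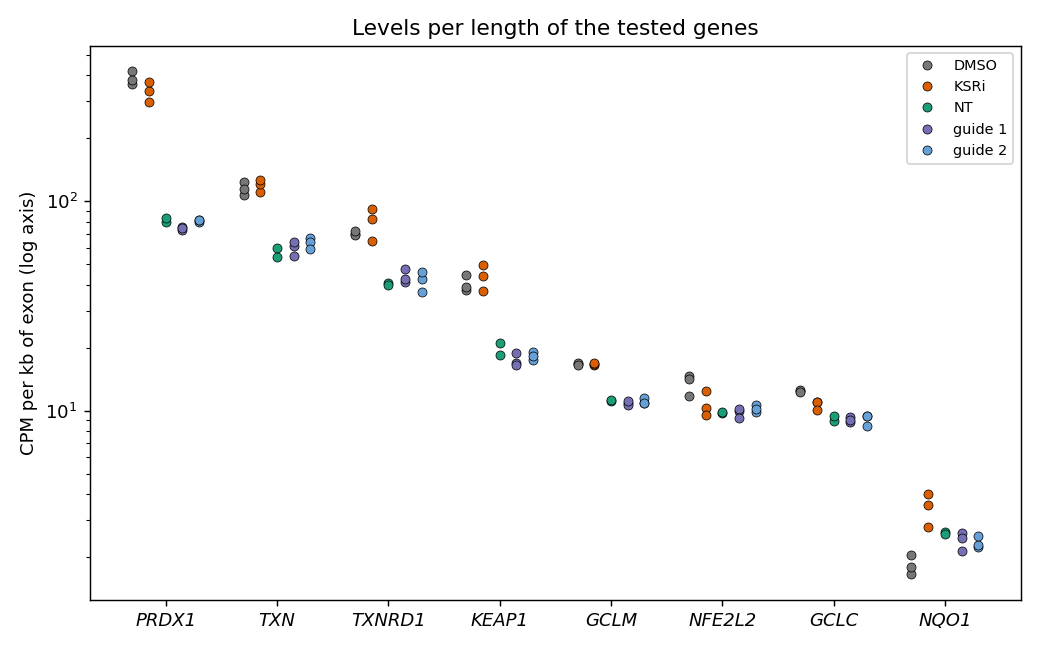
Levels of the 8 tested genes in CPM per kilobase of exon on a log axis, 1 point per library, coloured by group (DMSO, KSRi, NT, guide 1, guide 2). *PRDX1* leads at 388 CPM per kb in DMSO and lies closer to *TXN* in the NT and guide libraries than in the others, while *NQO1* is lowest throughout, at 1.83 CPM per kb in DMSO.

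*SRXN1* could not be followed in this table. It had 22 counts over all 14 libraries, from 0 to 5 in any library, and did not pass the filter on low counts, so it was not tested and no fold is given. Of its 2698 exonic bases 2292 also belong to another annotated gene on the same strand, ENSG00000270299, and that gene had 0 counts in every library. How reads shared by both genes were counted is not stated. The other 8 genes had at least 128 counts in each library and passed the filter whatever the group.

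To ask what the inhibitor did to this system, KSRi was compared with DMSO. *NQO1* rose 1.85-fold, while *NFE2L2*, *GCLC* and *PRDX1* fell by 1.15-fold to 1.25-fold, and *KEAP1*, *GCLM*, *TXNRD1* and *TXN* did not pass the test. Thus 4 of the 8 tested genes were called, 1 higher and 3 lower, where 40.7% of all 18963 tested genes were called (22% higher and 18.7% lower). The KSRi and DMSO libraries did not overlap for 2 of the 8, *NQO1* and *GCLC*, against 46.9% of all tested genes. The median log2 change of the 8 genes was 0.02, and the median of all tested genes was also 0.02. In bulk RNA a different level in every cell and a different share of cells cannot be told apart.

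*NQO1* (ENSG00000181019; GRCh38 chromosome 16, 69706996 to 69726951), which reduces quinones with NADPH or NADH, was scarce in these cells. It read 5.36, 5.82 and 6.68 CPM in DMSO replicates 1 to 3, 8.996, 11.5 and 13.1 CPM in KSRi, 8.58 and 8.36 CPM in NT, 8.49, 7.99 and 6.98 CPM with guide 1, and 7.25, 7.43 and 8.14 CPM with guide 2. All 3 KSRi libraries lay above every other library, and all 3 DMSO libraries lay below every other library. The log2 change with the inhibitor was 0.89 (SE 0.13, 95% interval 0.62 to 1.16, edgeR quasi-likelihood adjusted p = 4.38e-05), which put it 1677th from the highest of all 18963 tested genes. It was called in each of the 12 alternatives run, at log2 changes from 0.78 to 1.02.

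*NFE2L2* itself (ENSG00000116044; chromosome 2, 177227595 to 177392697) went the other way. It read 87.1, 84.4 and 70.4 CPM in DMSO replicates 1 to 3, 74.4, 61.6 and 57.2 CPM in KSRi, 58.1 and 58.6 CPM in NT, 59.5, 60.7 and 55.4 CPM with guide 1, and 58.7, 63.4 and 60.5 CPM with guide 2. KSRi and DMSO overlapped, since KSRi replicate 1 lay above DMSO replicate 3. On the log2 scale the inhibitor effect was −0.32 (SE 0.094, edgeR adjusted p = 0.0115), that is 1.25-fold lower. It lost the call in a fit of only these groups (adjusted p = 0.0625) and without DMSO replicate 1 (0.0583), KSRi replicate 2 (0.0511) or KSRi replicate 3 (0.0516). Among genes that share exonic bases with *NFE2L2* are *AGPS*, with 54 bases on the opposite strand, and ENSG00000213963, with 1054 bases on the same strand. In DMSO, KSRi and NT, *AGPS* stood at 178, 149 and 118 CPM. ENSG00000213963 went the other way, at 2.48, 3.35 and 5.81 CPM. The part of such overlaps in the *NFE2L2* counts was not tested.

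*KEAP1* (ENSG00000079999; chromosome 19, 10486120 to 10503741), the repressor of NRF2, did not differ between KSRi and DMSO beyond its spread. It read 167, 142 and 147 CPM in DMSO replicates 1 to 3, 140, 166 and 187 CPM in KSRi, 79.3 and 69.4 CPM in NT, 70.6, 63.5 and 61.8 CPM with guide 1, and 71.9, 65.8 and 68.3 CPM with guide 2. The log2 change was 0.11 (SE 0.096, 95% interval −0.089 to 0.32, edgeR adjusted p = 0.365). Without KSRi replicate 1 it was 0.22 and passed (adjusted p = 0.0362).

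Of the pair that makes up glutamate-cysteine ligase, the catalytic subunit fell and the modifier subunit stayed at its DMSO level within a narrow interval. *GCLC* (ENSG00000001084; chromosome 6, 53497341 to 53616970) read 107, 109 and 106 CPM in DMSO replicates 1 to 3, 94.6, 95.4 and 86.9 CPM in KSRi, 77.3 and 81.6 CPM in NT, 76.1, 80.2 and 77.6 CPM with guide 1, and 73.3, 81.1 and 81.4 CPM with guide 2. Its KSRi libraries lay below all DMSO libraries, with a log2 change of −0.22 (SE 0.064, edgeR adjusted p = 0.0118), and the call held in all 12 alternatives. *GCLM* (ENSG00000023909; chromosome 1, 93885205 to 93909456) read 90.5, 91.8 and 89.8 CPM in DMSO replicates 1 to 3, 89.1, 90.9 and 91.5 CPM in KSRi, 59.9 and 60.9 CPM in NT, 58.8, 57.5 and 59.9 CPM with guide 1, and 59.2, 62.0 and 58.8 CPM with guide 2. DMSO and KSRi overlapped almost entirely, and the log2 change was −0.0039 (SE 0.056, 95% interval −0.12 to 0.11, edgeR adjusted p = 0.964). Whether the inhibitor acted differently on *GCLC* and *GCLM* was not tested.

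In the thioredoxin arm *PRDX1* fell with the inhibitor and *TXN* and *TXNRD1* did not pass. *PRDX1* (ENSG00000117450; chromosome 1, 45511036 to 45523047), a peroxidase for hydrogen peroxide, read 637, 556 and 577 CPM in DMSO replicates 1 to 3, 456, 515 and 564 CPM in KSRi, 121 and 126 CPM in NT, 111, 115 and 114 CPM with guide 1, and 122, 123 and 123 CPM with guide 2. KSRi replicate 3 overlapped DMSO and the others did not, and the level fell 1.15-fold (log2 change −0.21, SE 0.076, edgeR adjusted p = 0.0393). It lost the call in 6 of 12 alternatives, with the log2 change between −0.28 and −0.13 over all of them. Among these were the fits without DMSO replicate 1 (−0.15, adjusted p = 0.176), without KSRi replicate 1 (−0.13, adjusted p = 0.121), without DMSO replicate 3 (−0.22, adjusted p = 0.0650) and without KSRi replicate 2 (−0.21, adjusted p = 0.0806).

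*TXN* (ENSG00000136810; chromosome 9, 110243811 to 110256640), the cytosolic thioredoxin, read 141, 122 and 131 CPM in DMSO replicates 1 to 3, 126, 139 and 144 CPM in KSRi, 68.3 and 61.6 CPM in NT, 69.5, 62.4 and 73.1 CPM with guide 1, and 76.6, 72.8 and 67.5 CPM with guide 2. Its log2 change with the inhibitor was 0.05 (SE 0.080, 95% interval −0.12 to 0.22, edgeR adjusted p = 0.645). *TXNRD1* (ENSG00000198431; chromosome 12, 104215779 to 104350305), the cytosolic thioredoxin reductase and a selenoprotein, read 466, 464 and 486 CPM in DMSO replicates 1 to 3, 433, 619 and 550 CPM in KSRi, 274 and 268 CPM in NT, 319, 277 and 284 CPM with guide 1, and 284, 248 and 307 CPM with guide 2. In KSRi it was below all DMSO libraries in replicate 1 and above all of them in replicates 2 and 3. The log2 change of 0.18 (SE 0.11, 95% interval −0.048 to 0.40) did not pass (edgeR adjusted p = 0.198), and without KSRi replicate 1 it was 0.31 and passed (adjusted p = 0.00527).

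KSRi replicate 1 stood on the low side of its group for most of these genes. As a share of the DMSO mean, KSRi replicates 1, 2 and 3 were at 91.7%, 131% and 117% for *TXNRD1*, at 92.4%, 109% and 123% for *KEAP1*, and at 151%, 194% and 219% for *NQO1*. *NFE2L2* had the opposite order, with 92.3%, 76.3% and 70.9%. Replicate 1 also had the highest mitochondrial share of the 3 KSRi libraries, and its part in these results was measured only by leaving it out. Without KSRi replicate 1 the calls were *NQO1*, *KEAP1* and *TXNRD1* higher and *NFE2L2* and *GCLC* lower.

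**Figure D2:**
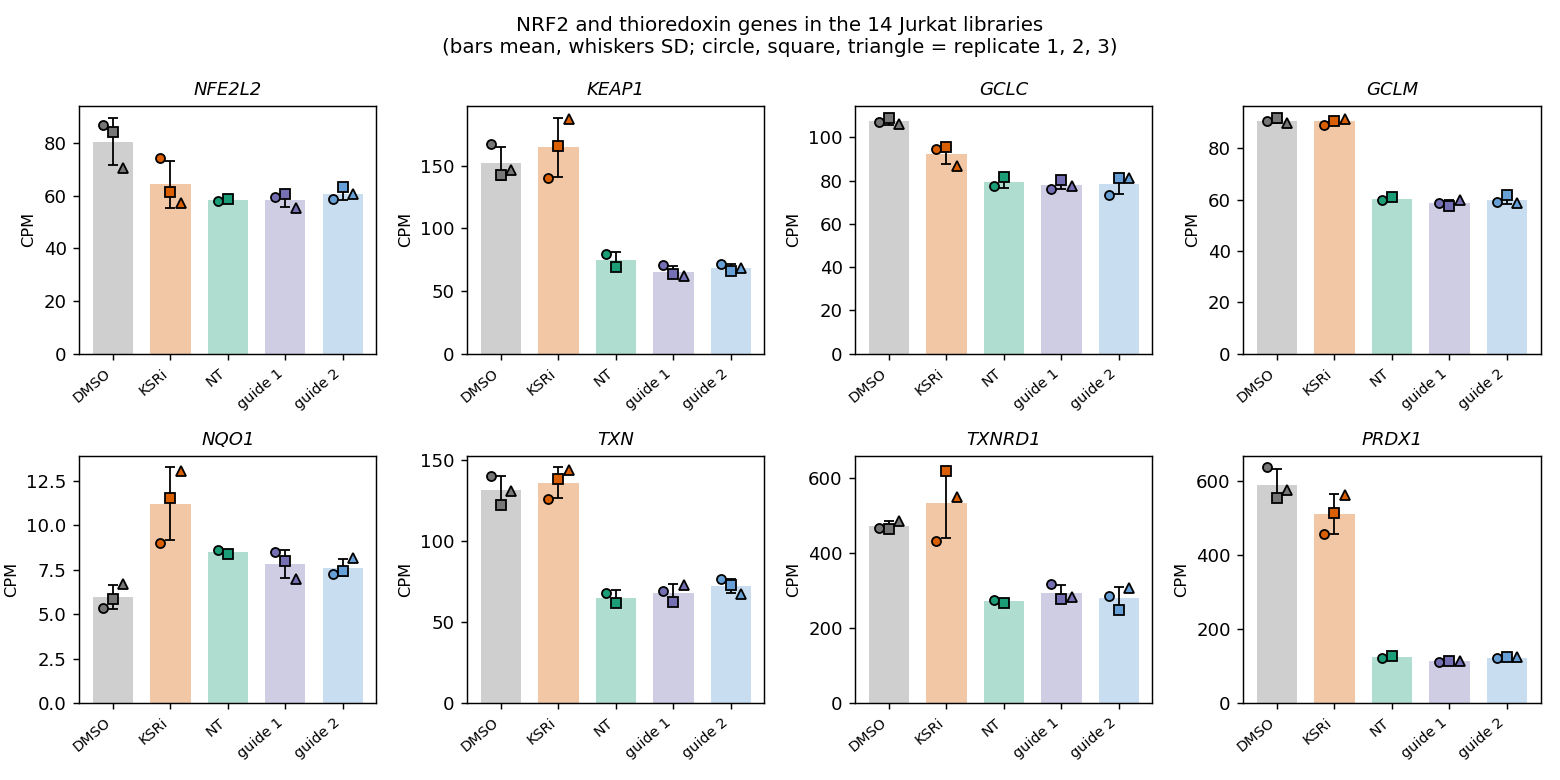
Level in CPM (y axes, from 0) of the 8 tested genes in each of the 14 libraries, with bars for the group mean, whiskers for the SD and a symbol per replicate. *PRDX1* is 111 to 126 CPM in all NT and guide libraries and 456 to 637 CPM in all DMSO and KSRi libraries, and *NQO1* is highest in KSRi.

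The guides asked what loss of the *KSR2* transcript did to the same genes. Of the 8 tested genes 0 were called with guide 1, with guide 2 or with both guides against NT by edgeR, and 0 reached an unadjusted p under 0.05 in these comparisons. DESeq2 also called 0 of them. Among all tested genes 0.00527% were called with guide 1, 0.0105% with guide 2 and 0.0158% with both, and 4.64%, 3.6% and 4.16% had an unadjusted p under 0.05. The log2 changes with both guides ran from −0.15 for *KEAP1* (95% interval −0.35 to 0.054) to 0.11 for *TXN* (−0.059 to 0.29). The 95% intervals were narrowest for *GCLM*, from −0.14 to 0.092, and widest for *NQO1*, from −0.39 to 0.13. Libraries of NT and of both guides taken as 1 set overlapped for all 8 genes, against non-overlap for 9.56% of all tested genes. With guide 1 alone 3 of 8 did not overlap NT (*GCLM* and *PRDX1* lower, *TXNRD1* higher), against 27.1% of all tested genes. With guide 2 alone 2 of 8 did not (*NFE2L2* higher, *NQO1* lower), against 21.1%.

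The guides differed little from each other in these genes. The log2 differences, guide 2 minus guide 1, ran from −0.068 for *TXNRD1* to 0.12 for *PRDX1* (95% interval −0.042 to 0.28), and 0 of 8 passed the edgeR test, with 0 at an unadjusted p under 0.05 and 0 by DESeq2. Among all tested genes 0.00527% were called and 3.24% had an unadjusted p under 0.05.

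Whether the inhibitor effect and the guide effect differed was tested as a difference of the 2 log2 changes. *NQO1* passed, with an inhibitor effect of 0.89, a guide effect of −0.13 and a difference of 1.02 (SE 0.18, 95% interval 0.65 to 1.40, edgeR adjusted p = 0.000505). It was called in all 19 alternatives, at differences from 0.91 to 1.15. The other 7 genes did not pass, so 1 of 8 was called, higher, where 28.6% of all tested genes were called and 16.6% were called higher. *NFE2L2* was the nearest, with a difference of −0.35 (SE 0.13, edgeR adjusted p = 0.0569), and it passed without DMSO replicate 3 (−0.44, adjusted p = 0.0222) and without KSRi replicate 1 (−0.47, adjusted p = 0.00216). It also passed without a low-count filter (−0.37, edgeR adjusted p = 0.0263) and with a replicate block (−0.41, edgeR adjusted p = 0.0242). *KEAP1*, at 0.26 (edgeR adjusted p = 0.158), passed only without KSRi replicate 1 (0.37, adjusted p = 0.0133).

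**Figure D3:**
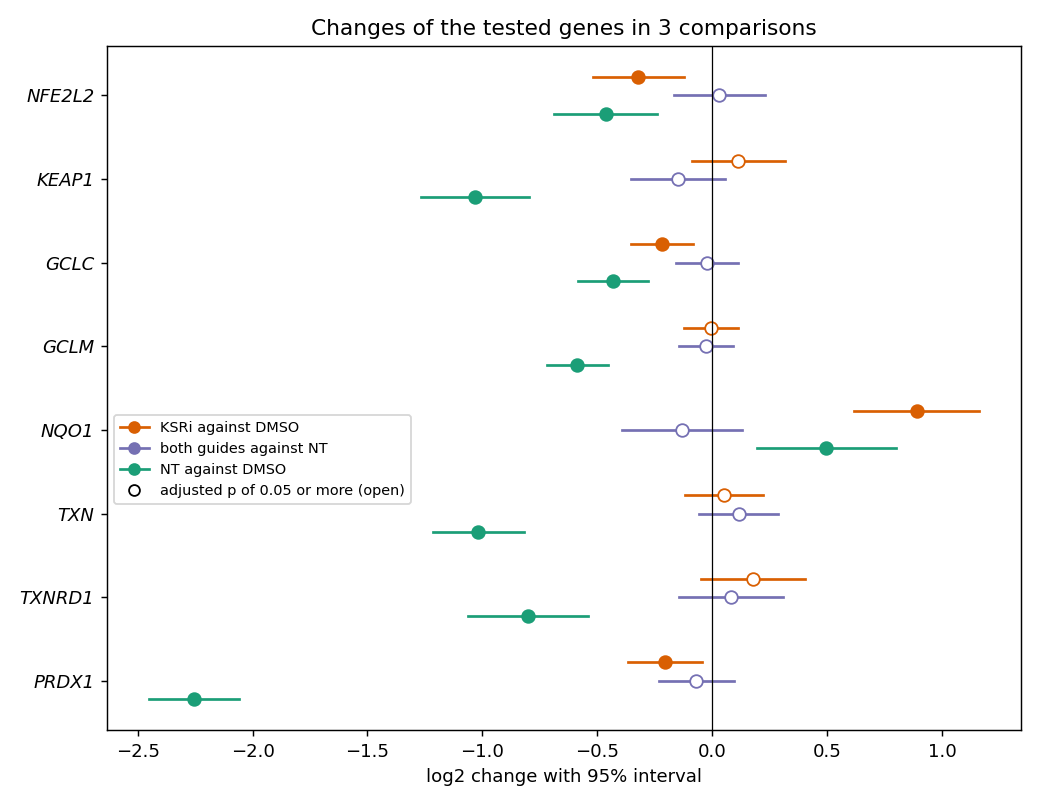
Log2 changes with 95% intervals (x axis) of the 8 tested genes for KSRi against DMSO, both guides against NT and NT against DMSO, filled where the edgeR adjusted p is under 0.05. All intervals for the guides cross 0, *NQO1* alone is to the right with the inhibitor among filled points, and NT against DMSO is left of 0 for every gene except *NQO1*, down to −2.26 for *PRDX1*.

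The control groups differed from each other in all 8 tested genes. *PRDX1* in NT was at 20.9% of its DMSO level, a 4.78-fold difference (log2 −2.26, SE 0.093, 95% interval −2.45 to −2.06, edgeR adjusted p = 5.40e-12). *KEAP1* was 2.04-fold lower (log2 −1.03, SE 0.11), *TXN* 2.03-fold (−1.02, SE 0.093), *TXNRD1* 1.74-fold (−0.80, SE 0.12) and *GCLM* was at 66.6% of its DMSO level (−0.59, SE 0.063). *NFE2L2* was 1.38-fold lower (−0.46) and *GCLC* 1.35-fold (−0.43). *NQO1* was 1.41-fold higher in NT (0.50, SE 0.14, edgeR adjusted p = 0.00585). In all, 8 of 8 tested genes were called, 7 lower and 1 higher, where 65.8% of all tested genes were called, 34.6% higher and 31.2% lower. The median log2 difference of the 8 was −0.69 and that of all tested genes 0.04.

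NT and DMSO differ in guide, solvent and whatever else separated the cultures, and these cannot be told apart. The share of mitochondrial counts was 1.85% to 2.50% in NT against 1.27% to 1.45% in DMSO. The summed level of the 11 markers of other blood cells, nearly all of it *CD79A*, was 43.8 to 68.2 CPM in the NT and guide libraries against 22.2 to 25.7 CPM in DMSO and KSRi, with *CSF1R* and *HBB* at 0 counts throughout. The part of either in the differences between NT and DMSO was not tested. The comparison of KSRi with DMSO uses the same DMSO libraries, so the rise of *NQO1* in both and the falls of *NFE2L2*, *GCLC* and *PRDX1* in both are not separate observations. With library totals alone in place of TMM scaling, the median of all tested genes moved from 0.04 to 0.31, and 69.9% of called genes were higher in NT against 52.6% with TMM. Under that scaling *PRDX1* was at −1.98, *KEAP1* at −0.76 and *TXN* at −0.75, all still called, while *NFE2L2* (−0.19, adjusted p = 0.172) and *GCLC* (−0.16, adjusted p = 0.0781) were not.

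*PRDX1* was 90th from the lowest of the 18963 tested genes by its log2 difference between NT and DMSO. Among 3012 genes of at least 100 CPM in DMSO it was 14th. Its low level held in the guide 1 and guide 2 libraries as well. *MMACHC*, which shares 379 exonic bases with *PRDX1* on the opposite strand, stood at 17.9 CPM in DMSO and 19.6 CPM in NT, and the processed copy *PRDX1P1* did not exceed 0.161 CPM in any library. For *TXN*, its 7 named pseudogene copies together reached at most 0.635 CPM.

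The libraries fell into 2 sets for most of these genes. For 6 of 8, namely *KEAP1*, *GCLC*, *GCLM*, *TXNRD1*, *PRDX1* and *TXN*, each of the 6 DMSO and KSRi libraries lay above each of the 8 NT and guide libraries, where this held for 23.4% of all tested genes (47.1% in either direction). The gap was widest for *PRDX1*, 456 to 637 CPM against 111 to 126 CPM. It was narrowest for *GCLC*, 86.9 to 109 CPM against 73.3 to 81.6 CPM. *NFE2L2* and *NQO1* were the exceptions, with overlapping ranges. For *NFE2L2* the order of means was DMSO, KSRi, guide 2, guide 1 and NT, each overlapping the next. For *NQO1* it was KSRi, NT, guide 1, guide 2 and DMSO, with KSRi and DMSO apart from their neighbours. The order was DMSO, KSRi, then the 3 guide groups for *GCLC*, *GCLM* and *PRDX1*, and KSRi, DMSO, then the guide groups for *KEAP1*, *TXNRD1* and *TXN*. DMSO and KSRi overlapped in all of these except *GCLC*. Among the guide groups neighbours in the order overlapped, except guide 2 over guide 1 for *PRDX1*, which did not pass the test.

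The genes most like each member over the 14 libraries were found by Pearson's r of log2 CPM among 11055 other genes of at least 5 CPM on average. The libraries share their groups, and r takes in differences between groups as well as within them. No r within groups was computed between the members and these other genes, so these values are a description only. Between pairs of members, r within groups ran from −0.72 for *NFE2L2* and *NQO1* to 0.70 for *KEAP1* and *PRDX1*. Over the 14 libraries these pairs had r of −0.60 and 0.98. For *GCLM* and *PRDX1* r was 0.995 over the 14 libraries and 0.24 within groups. *PRDX1* was closest to *DNMT1*, the maintenance DNA methyltransferase (r = 0.998), and *FOCAD* (0.998). *KEAP1* was closest to *BANF1* (0.997) and *SCAF1* (0.996), *GCLM* to *B4GALT5* (0.997) and *ISOC1* (0.996), and *TXN* to *LSM3* (0.994) and *DNAJC8* (0.991). *GCLC* was closest to *IDE* (0.989) and *MTPAP* (0.989), and *TXNRD1* to *TUBGCP2* (0.988) and *CDC6* (0.988). *NQO1* followed *ABTB2* (0.975) and *CEMIP2* (0.970). *NFE2L2* had the loosest neighbours, *ZZZ3* (0.941) and *LEO1* (0.940).

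Wider parts of the pathway were then described with 7 further gene lists. Other known NRF2 target genes were mostly higher with the inhibitor where they changed. Of 25 tested 13 rose and 2 fell, and the median log2 change was 0.41, against 0.02 for all tested genes and calls in 40.7% of them. They included the cystine transporter gene *SLC7A11* (17.9 ± 1.79 to 58.7 ± 7.03 CPM, SD, n = 3 each), *ABHD4*, a lipase (11.1 ± 1.29 to 26.5 ± 3.85 CPM), the epoxide hydrolase *EPHX1* (21.5 ± 1.87 to 38.3 ± 7.34 CPM) and *PGD* of the pentose phosphate pathway (413 ± 48.7 to 827 ± 199 CPM). With both guides 0 of 25 were called by edgeR, with 2 at an unadjusted p under 0.05, and the median was −0.064. *HMOX1*, the haem oxygenase often used to read NRF2 activity, and *CBR1*, both named after their values were seen, had 0 counts in all 14 libraries, which allows up to 0.161 CPM in the shallowest (3 counts, counting error only).

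In NT against DMSO 7 of the 25 NRF2 target genes were higher and 12 lower, with a median of −0.035, where 34.6% of all tested genes were called higher and 31.2% lower. Without scaling factors 11 were higher and 9 lower. *SLC7A11* was 3.10-fold higher in NT, at 55.7 ± 4.38 CPM (n = 2). The multidrug transporter *ABCC4* was 1.83-fold lower and glutathione reductase *GSR* 1.92-fold. *EPHX1* and *PGD*, higher in KSRi than in DMSO, were lower in NT than in DMSO, at 13.7 and 220 CPM.

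Of 23 tested genes of glutathione supply and use 10 rose and 2 fell with the inhibitor (median 0.25), where 40.7% of all tested genes were called, 22% higher and 18.7% lower. The glutathione-degrading enzyme *CHAC1* went from 2.64 ± 0.288 to 18.5 ± 3.30 CPM, *OPLAH*, which returns oxoproline to glutamate, from 3.47 ± 0.204 to 20.6 ± 4.23 CPM, and the transferase *GSTZ1* from 22.7 ± 1.43 to 42.1 ± 4.38 CPM (n = 3 each). In NT against DMSO 8 were higher and 11 lower (median −0.32), against calls in 65.8% of all tested genes. *CHAC1* (10.1-fold), *OPLAH* (8.32-fold), *GGT7* (2.90-fold) and *SLC7A11* were among those higher. *GCLC* and *GCLM*, which are not in this list and not in its counts, were lower, as given above. The inhibitor and guide effects differed for *CHAC1* (log2 difference 3.08), *OPLAH* (2.54), *SLC7A11* (1.64) and *GSTZ1* (1.06), all with edgeR adjusted p values of at most 9.38e-06. Mean levels in KSRi were below those in NT for *CHAC1* (18.5 against 26.6 CPM) and *OPLAH* (20.6 against 29.1 CPM). They were near NT for *SLC7A11* (58.7 against 55.7 CPM) and above it for *GSTZ1* (42.1 against 26.5 CPM). KSRi and NT were both compared with the same DMSO libraries. The rises of *CHAC1*, *OPLAH* and *SLC7A11* in both are therefore not separate observations.

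Of 16 tested other thioredoxin and peroxiredoxin genes 7 rose and 2 fell with the inhibitor (median 0.15), against calls in 40.7% of all tested genes. *TXNRD3* rose 1.47-fold, the mitochondrial and peroxisomal peroxiredoxin *PRDX5* 1.47-fold and the methionine sulfoxide reductase *MSRB2* 1.69-fold, and *PRDX4* of the endoplasmic reticulum fell 1.35-fold. In NT against DMSO 9 of the 16 were called, a smaller share than the 65.8% of all tested genes. Of these 1 was higher and 8 lower (median −0.34; 5 and 7 without scaling factors), among them *PRDX4* (2.42-fold), the mitochondrial *PRDX3* (2.18-fold), the nucleoredoxin *NXN* (1.82-fold), and *TMX1* (1.39-fold). None of the 16 differed by as much as *PRDX1*, which was 4.78-fold lower.

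Among 12 tested genes of NADPH supply, which feeds thioredoxin reductase, NQO1 and glutathione reductase, 6 rose and 2 fell with the inhibitor (median 0.18), against calls in 40.7% of all tested genes. The NADP-dependent isocitrate dehydrogenases *IDH1* (1.56-fold) and *IDH2* (1.58-fold) and the folate enzyme *MTHFD2* (1.65-fold) rose, and *ME2*, a mitochondrial malic enzyme that uses mainly NAD, fell 1.34-fold. Neither NADPH itself nor the cofactor that an enzyme used was measured. In NT against DMSO 1 was higher, *MTHFD2* (2.19-fold), and 9 were lower (median −0.66), with *MTHFD1* at 2.72-fold, the NAD kinase *NADK* at 1.72-fold and *ME2* at 1.56-fold, where 65.8% of all tested genes were called. The inhibitor and guide effects differed for *PGD* (log2 difference 1.17), *MTHFD2* (0.79) and *IDH2* (0.76). Mean levels in KSRi were above those in NT for *PGD* (827 against 220 CPM) and *IDH2* (679 against 414 CPM). For *MTHFD2* KSRi was below NT (556 against 738 CPM), and its rises in both over the same DMSO libraries are not separate observations.

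Partners and regulators of NRF2 moved both ways with the inhibitor, 6 of 15 being higher and 4 lower (median 0.19), against calls in 40.7% of all tested genes. This count of 10 rested on single libraries, being 5 without DMSO replicate 2, DMSO replicate 3 or KSRi replicate 2, 4 without KSRi replicate 3, and 5 in a fit of only these groups and 6 without a low-count filter, so that the share of the list called was in several of these near or below that of all genes. The 4 genes named next kept their calls with each library left out. *CUL3*, the scaffold of the ligase that works with KEAP1, fell 1.36-fold, the small MAF partner *MAFK* 1.37-fold and *PALB2* 1.28-fold, and the kinase *GSK3B* rose 1.28-fold. In NT against DMSO 2 were higher and 10 lower (median −0.45; 5 and 7 without scaling factors), where 65.8% of all tested genes were called, with *CUL3* (1.73-fold), its RING partner *RBX1* (1.97-fold) and the KEAP1-binding *DPP3* (2.36-fold) lower beside *KEAP1*, and the repressor *BACH2* 1.75-fold higher.

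In the machinery that places selenocysteine, which TXNRD1 carries, 2 of 9 tested genes rose and 2 fell with the inhibitor (median 0.17), a share near the 40.7% called among all tested genes. The selenocysteine lyase *SCLY* fell 2.00-fold, from 22.3 ± 2.35 to 11.1 ± 2.25 CPM (n = 3 each), *TRNAU1AP* fell 1.19-fold (not called without DMSO replicate 3, edgeR adjusted p = 0.0532, or KSRi replicate 3, 0.0502), and *SECISBP2* (1.19-fold) and *EEFSEC* (1.25-fold) rose. In NT *SCLY* stood at 10.3 CPM. The falls of *SCLY*, and of *PRDX4*, *ME2* and *CUL3* above, in both KSRi and NT rest on the same DMSO libraries and are not separate observations. Of 5 tested genes that remove superoxide and peroxide 1 rose with the inhibitor and 0 fell (median 0.24), a smaller share than the 40.7% called among all tested genes, and 2 were called without KSRi replicate 1, without KSRi replicate 3 or without a low-count filter. In NT against DMSO *SOD1*, the cytosolic superoxide dismutase, was 2.33-fold lower, *PARK7* 2.04-fold and the catalase gene *CAT* 1.35-fold, and *OXR1* was 1.53-fold higher, where 65.8% of all tested genes were called. *PARK7* lost its call without DMSO replicate 3 (edgeR adjusted p = 0.0570), NT replicate 1 (0.0806) or NT replicate 2 (0.0648). These counts of 1 higher and 3 lower became 2 and 1 without scaling factors, with *PARK7* (adjusted p = 0.0620) and *CAT* (0.101) no longer called. In all 7 lists 0 genes were called by edgeR with guide 1, guide 2 or both guides against NT.

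**Figure D4:**
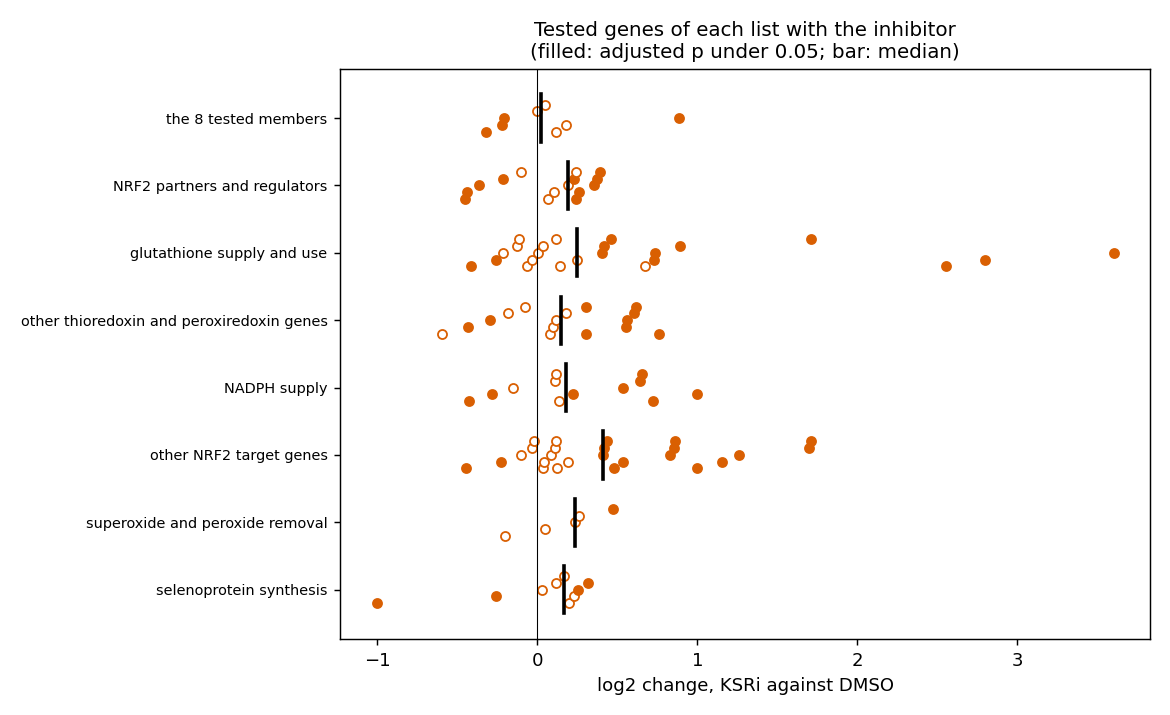
Log2 change with the inhibitor (x axis, KSRi against DMSO) of each tested gene in the 8 named genes and in 7 wider lists (rows), filled where the edgeR adjusted p is under 0.05, with a bar at each median. The 8 named genes centre on 0.02 with *NQO1* alone far to the right, while the other NRF2 target genes centre on 0.41.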

How the data were processed

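The values the authors deposited are raw whole-number read counts for each Ensembl identifier. STAR 2.7.11b, DESeq2 1.42.1 and GRCh38 are named in the submitters' processing notes. Which program counted, with which strand setting and annotation, is not stated, which matters where genes overlap. Symbols were found for 61369 of 61541 identifiers, and positions and exon lengths come from GENCODE 29 (GRCh38).

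From these counts edgeR 4.0.16 (R 4.3.3) computed TMM factors, applied filterByExpr on the 5 groups (18963 genes kept) and fitted 1 mean per group over all 14 libraries. The quasi-likelihood F test was adjusted by Benjamini-Hochberg over all tested genes (threshold 0.05). Standard errors are the log2 change divided by the root of F. CPM use TMM-scaled totals, and log2 CPM a prior count of 2. The procedure was also run on simulated data with the same spread for every gene and group. That run cannot show how it does under the wider spread of the KSRi libraries.

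The members, lists and naming rule were chosen with earlier results of these data known. All 9 members are named, and up to 4 called genes per list and comparison with the lowest p. One gene that the rule names is not reported here. Alternatives were RLE factors, no low-count filter, DESeq2 1.42.0, fits restricted to the compared groups, a replicate block, each library left out in turn and, chosen after seeing the data, no scaling factors. No replicate pair agreed within sampling noise, the lowest chi-square being 5.83 per degree of freedom, and each counts once.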

Additional observations from a re-analysis of the deposited data

How the results depend on the processing

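The count of called genes among the 8 moved by over 1.5 times in 2 comparisons. For KSRi against DMSO (4 called) it was 2 in a fit of only the groups compared, and 2 to 5 with 1 library left out, the 2 arising without DMSO replicate 1 or KSRi replicate 2. For the difference between the inhibitor and guide effects (1 called) it was 2 without a low-count filter, 2 with a replicate block, and 1 to 3 with 1 library left out, *NFE2L2* being the added gene without the filter and with the block. For NT against DMSO (8 called) it was 6 without scaling factors and stayed at 8 with 1 library left out. For guide 1, guide 2, both guides and guide 2 against guide 1 it was 0 throughout. Deviations from the group means were correlated at −0.18 to 0.11 between same-numbered libraries of different groups, and at −0.11 to 0.12 between differently numbered ones. With 2 or 3 libraries in a group, these values cannot tell whether a replicate number stood for a shared batch. The replicate block moved the calls over all genes from 7712 to 7217 for KSRi against DMSO. They went from 1 to 2 for guide 1, from 2 to 3 for guide 2 and from 3 to 2 for both guides. Under the replicate block *PRDX1* with the inhibitor had an adjusted p of 0.0546. *IDH2* in NT against DMSO went from a log2 difference of −0.055 to 0.22 without scaling factors (adjusted p = 0.0268), the 1 named gene to change sign with a call. Values of *SRXN1* are limited by 22 counts in all.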
